A study of Mus musculus with 10 samples.

Results

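The transcription factors described here are the core genes of the mesenchymal programme: Twist1, Twist2, Prrx1, Prrx2, Zeb1, Zeb2, Snai1, Snai2 and Tcf21. They are 9 of the 45706 genes in the deposited tables. Each was found by its gene symbol, and its estimated reads were summed over its transcripts, 54 transcripts in all. RNA was sequenced at 5 stages of the reprogramming of mouse fibroblasts to pluripotency, with 2 libraries a stage. The starting cells were mouse embryonic fibroblasts (MEFs) of a C57BL/6 x 129 background that carried OKSM, the reprogramming cassette of Oct4, Klf4, Sox2 and Myc, at Col1a1, and M2rtTA, the activator that doxycycline switches on, at ROSA26. The MEF group was left uninduced, unsorted and without doxycycline in fibroblast medium, so the controls carried both alleles too. The D3 group was harvested on day 3, unsorted, in embryonic stem cell medium with doxycycline at 1 µg/ml and ascorbic acid at 50 µg/ml. The D6 and D9 groups, harvested on days 6 and 9, had the same alleles and medium but were sorted for SSEA1, a surface sugar of cells on the way to pluripotency. Sorting started between D3 and D6, so elapsed time and selection of cells cannot be told apart in that step. The ESC group was V6.5, a single embryonic stem cell line of the same mixed background with no cassette named in its genotype, unsorted, for which the protocol gives culture on irradiated feeder cells, which are fibroblasts as a rule. Embryonic stem cells are therefore a reference and not the end point of the induced cells.

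The libraries held 29585876 to 38275024 estimated reads, and the replicates are called biological in the design text, with no culture or embryo named, so the p-values measure the spread between these libraries. All 10 fibroblast markers examined (among them Col1a1, Col3a1, Thy1 and Pdgfra) were high in MEFs, with a summed level of 40830.3 to 42289.3 CPM (counts scaled to library size). Their sum was 3888.5 to 3911.7 CPM at D3, 219.6 to 231.2 at D6, 94.7 to 100.9 at D9 and 3524.1 to 3605.3 CPM in ESCs. The 10 embryonic stem cell markers summed to 4408.8 CPM or more in ESCs and to 2.96 CPM or less in MEFs. In bulk RNA, fewer mesenchymal cells and less RNA of a gene per cell cannot be told apart.

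Mesenchymal cells are held in their state by a small circuit of DNA-binding proteins. Snai1 (Snail), Snai2 (Slug), Zeb1 and Zeb2 are zinc finger repressors that bind the E-box CANNTG, most often as CAGGTG or CACCTG, in the promoters of E-cadherin (Cdh1) and other epithelial genes. Twist1 and Twist2 are basic helix-loop-helix factors that bind E-boxes as dimers with the E-proteins Tcf3, Tcf4 and Tcf12, and Id proteins take those partners away. Prrx1 and Prrx2 are paired-related homeobox factors of limb and craniofacial mesenchyme. Tcf21 is a helix-loop-helix factor of mesenchyme around internal organs. The change from epithelial to mesenchymal cells (EMT) runs through these factors, and fibroblasts go through the reverse change early in reprogramming. The Zeb messengers are in turn textbook targets of the miR-200 family, which epithelial cells make.

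The letters that these factors and microRNAs read are shown first. Promoter windows of 250 bases before the start site were taken from RefSeq (GRCm38.p6) and searched on both strands for CAGGTG or its reverse complement CACCTG, in capitals below. Snai1 is shown as a member that holds its own family's motif, and Epcam and Crb3 as epithelial genes that hold it more than once. The windows are chr2:167537945-167538194 for Snai1, chr17:87635729-87635978 for Epcam and chr17:57061951-57062200 for Crb3, all on the plus strand.
Snai1 promoter: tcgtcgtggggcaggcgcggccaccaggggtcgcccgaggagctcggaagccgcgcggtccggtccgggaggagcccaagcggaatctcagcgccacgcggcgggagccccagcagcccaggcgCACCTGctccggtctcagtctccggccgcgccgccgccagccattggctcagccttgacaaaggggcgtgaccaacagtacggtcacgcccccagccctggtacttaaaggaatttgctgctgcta
Epcam promoter: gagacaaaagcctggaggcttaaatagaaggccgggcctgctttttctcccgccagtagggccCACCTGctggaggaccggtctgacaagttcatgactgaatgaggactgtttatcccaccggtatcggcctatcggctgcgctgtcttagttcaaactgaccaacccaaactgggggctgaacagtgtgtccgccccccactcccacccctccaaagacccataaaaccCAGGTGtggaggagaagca
Crb3 promoter: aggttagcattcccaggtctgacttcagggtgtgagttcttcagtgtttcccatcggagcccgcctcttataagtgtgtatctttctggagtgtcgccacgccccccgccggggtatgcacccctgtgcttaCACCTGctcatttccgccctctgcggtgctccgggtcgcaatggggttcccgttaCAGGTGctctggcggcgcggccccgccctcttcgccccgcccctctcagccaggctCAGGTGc
The match in the Snai1 window starts at -126 from the start site. In the Epcam window the matches start at -187 and -19, and in the Crb3 window at -118, -63 and -7. Of the 7 members whose windows were searched, Snai1 was the only gene with a match. Zeb1 was left out of the search, and Snai2 had no promoter in the table. Of 13 epithelial genes with a promoter in the table, 7 held at least 1 match in a window and 4 held at least 2. Over all 27025 genes in the table those shares were 19.4% and 2.39%. A match describes the letters and is no evidence of binding.

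The 5 mature miR-200 sequences of RefSeq (GRCm38.p6) fall into 2 seed groups, which differ at a single letter of the seed, bases 2 to 8, in capitals.
mmu-miR-200b-3p: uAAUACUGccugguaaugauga
mmu-miR-200c-3p: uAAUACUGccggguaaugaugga
mmu-miR-429-3p: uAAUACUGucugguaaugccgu
mmu-miR-200a-3p: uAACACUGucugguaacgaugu
mmu-miR-141-3p: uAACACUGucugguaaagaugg
In the 3′ UTR of Zeb2, 4941 bases in the GENCODE M21 transcript with the longest one, the complement of the first seed, CAGTATT, occurred 5 times and that of the second, CAGTGTT, 4 times. The 5 CAGTATT matches are given with 15 bases before and 1 after them, on the minus strand of chromosome 2 in GRCm38, and start at bases 393, 458, 820, 905 and 1039 of the UTR.
Zeb2 chr2:44988173-44988195: cgcactaccatacatCAGTATTt
Zeb2 chr2:44988108-44988130: cgcactacagtgcatCAGTATTa
Zeb2 chr2:44987746-44987768: ttgaagcacccgtgtCAGTATTa
Zeb2 chr2:44987661-44987683: gttcattaattttgtCAGTATTa
Zeb2 chr2:44987527-44987549: tcatactgtagtgtaCAGTATTa
Of 821 other genes with a 3′ UTR of at least that length, read over the same 4941 bases, 38.6% held CAGTATT at least once and none held it 5 times, and 1.1% held 4 or more CAGTGTT. Zeb1, with 2401 bases of 3′ UTR, also had 5 CAGTATT and 4 CAGTGTT matches. Of 4147 other genes with at least 2401 bases, none had as many of the first and 0.12% as many of the second. These libraries measured poly(A) RNA and give no level for the mature microRNAs.

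All levels below are CPM scaled by trimmed mean normalisation (TMM), and differences are log2 fold changes from edgeR's quasi-likelihood test, fitted to all 10 libraries and 20165 genes. A gene is said to rise or fall where its Benjamini-Hochberg adjusted p was under 0.05 and its log2 fold change was at least 1 in size. SE is the size of the log2 fold change divided by the square root of edgeR's F statistic. It restates the test and can understate the error of a large change where a stage has few reads, as for Twist2 at D9. The 9 factors together took 1322.1 and 1325.4 CPM in the MEF libraries, 592.4 and 615.0 at D3, 125.0 and 126.7 at D6, and 37.4 and 40.1 CPM at D9. In ESCs they took 159.1 and 160.3 CPM, above D9 and D6 and below D3. The stage mean of every factor but Zeb1 was highest in MEFs, and that of each of the 8 tested factors was lowest at D9. The plot of levels by library shows these courses.

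**Figure D1:**
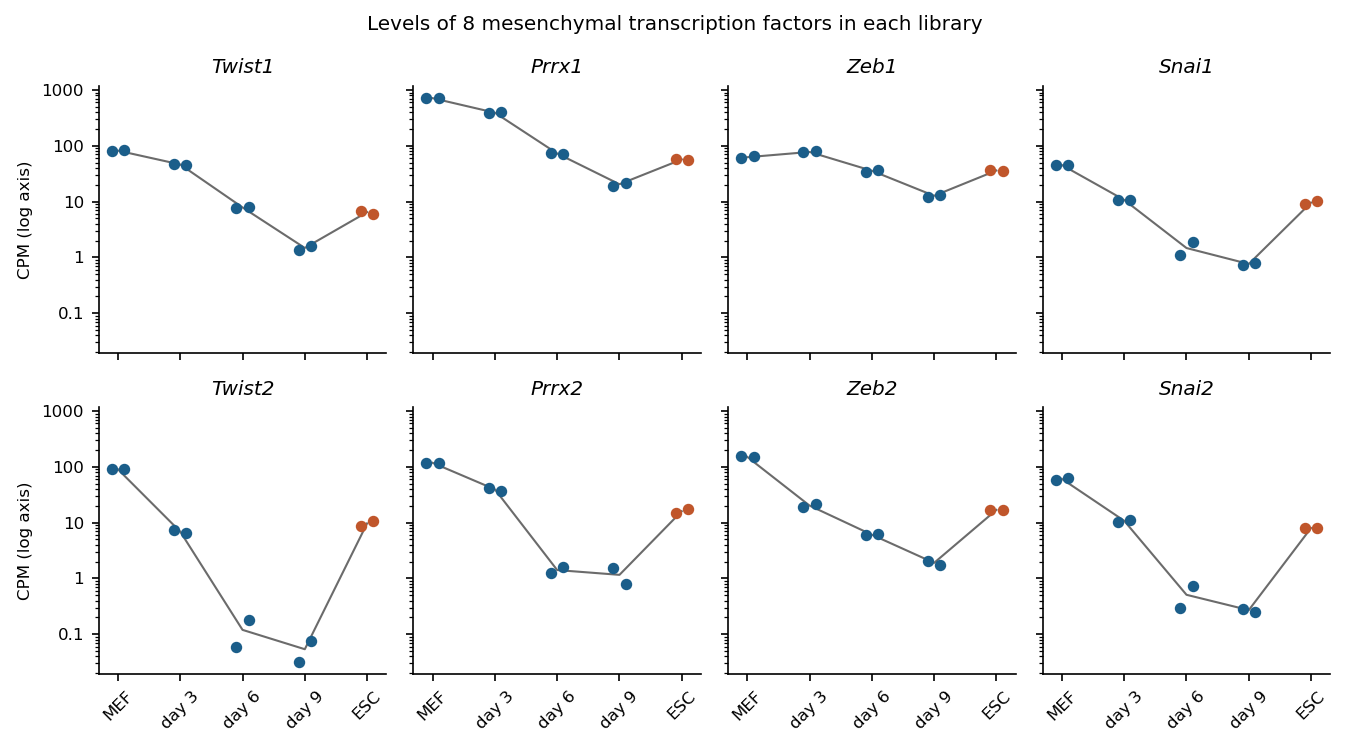
CPM (log axis) of the 8 factors that passed the filter on low counts, in the libraries of each stage. Points are libraries, blue for MEF to day 9 and orange for ESC, and lines join the stage means. Zeb1 spans the smallest range, from 12.7 to 77.5 CPM in its stage means, and Twist2 the widest, from 0.054 to 90.5 CPM.

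Twist1 (ENSMUSG00000035799, chr12:33957671-33959829 in GRCm38) kept more of its level at D3 than any other E-box factor but Zeb1. It stood at 79.0 and 84.6 CPM in the MEF libraries, 47.1 and 45.4 at D3, 7.82 and 7.89 at D6, 1.38 and 1.57 at D9, and 6.89 and 6.04 CPM in ESCs. No stage overlapped another. The D3 level differed from MEF by -0.82 on the log2 scale (SE 0.05, edgeR adjusted p = 5e-09), short of the fold minimum. Twist1 fell by 2.56 (SE 0.07) from D3 to D6 and by 2.40 (SE 0.12) from D6 to D9. ESC and D6 lay close, with a log2 difference of 0.28 (adjusted p = 0.012).

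Twist2 (ENSMUSG00000007805, chr1:91801461-91848028), its close relative with the same helix-loop-helix domain, had a very different course. Its levels were 90.3 and 90.7 CPM in MEFs, 7.35 and 6.47 at D3, 0.0588 and 0.181 at D6, 0.0321 and 0.0758 at D9, and 8.81 and 10.6 CPM in ESCs. At D3 it was at 7.64% of its MEF mean, where Twist1 was at 56.6%. At D9 the libraries held 1 and 3 reads of Twist2, so its ratio of MEF to D9, 1600, has a 95% counting interval of 625 to 5875. The D6 and D9 libraries, with 8 and 4 reads in all, overlapped. Twist2 fell by 3.71 (SE 0.09) from MEF to D3 and by 5.82 (SE 0.27) from D3 to D6. ESC stood 173 times above D9 by the CPM ratio (counting interval 67 to 635) and exceeded even D3, by less than the fold minimum.

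Prrx1 (ENSMUSG00000026586, chr1:163245119-163313710, minus strand), which marks mesenchymal progenitors of limb and face, had the highest CPM of the 9 factors in every library. With all Prrx2 reads counted, it was not the highest per length in ESCs. It had 714.6 and 712.2 CPM in MEFs, 380.0 and 403.3 at D3, 74.4 and 71.1 at D6, 19.3 and 21.6 at D9, and 58.1 and 55.7 CPM in ESCs. The stages did not overlap. D3 differed from MEF by -0.87 (SE 0.04, edgeR adjusted p = 1.3e-10), short of the fold minimum. Prrx1 then fell by 2.43 (SE 0.05) and 1.82 (SE 0.06) in the next steps, and D9 kept 2.87% of the MEF level.

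Prrx2 (ENSMUSG00000039476, chr2:30834972-30881251), whose homeodomain closely resembles that of Prrx1, reached its low level earlier. The values were 119.2 and 117.3 CPM in MEFs, 41.6 and 37.5 at D3, 1.23 and 1.60 at D6, 1.54 and 0.783 at D9, and 14.8 and 17.3 CPM in ESCs. D6 and D9 overlapped (log2 fold change -0.34, SE 0.30, adjusted p = 0.44), and without the second D9 library the sign turned, to 0.12. The drop of 4.80 (SE 0.15) from D3 to D6 was the second largest among the factors in that step, after Twist2. ESCs held 13.6% of the MEF level.

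Zeb1 (ENSMUSG00000024238, chr18:5591860-5775467) is the repressor that departed least from its fibroblast level. It had 60.5 and 64.3 CPM in MEFs, 75.8 and 79.2 at D3, 34.2 and 37.2 at D6, 12.1 and 13.3 at D9, and 36.7 and 35.3 CPM in ESCs. Both D3 libraries stood above both MEF libraries, with a log2 difference of 0.31 (SE 0.05, edgeR adjusted p = 0.00014), which is under the fold minimum. That difference ranged from 0.17 to 0.52 over the alternative settings and had adjusted p = 0.086 and 0.11 with limma on TPM. Zeb1 fell by 1.12 (SE 0.06) from D3 to D6 and by 1.49 (SE 0.07) from D6 to D9. ESC and D6 overlapped, at 57.7% and 57.2% of the MEF mean, and the difference between ESC and MEF, -0.79 (SE 0.06), also missed the fold minimum.

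Zeb2 (ENSMUSG00000026872, chr2:44983632-45117395, minus strand), the paralog of Zeb1, fell already from MEF to D3. Its levels were 153.7 and 148.1 CPM in MEFs, 19.3 and 21.2 at D3, 6.00 and 6.17 at D6, 2.09 and 1.72 at D9, and 16.7 and 17.2 CPM in ESCs. Each stage stood clear of the others. The log2 fold changes of the steps were -2.90 (SE 0.05), -1.73 (SE 0.08) and -1.69 (SE 0.12), and D9 kept 1.26% of the MEF level. The ESC level lay just under D3, by less than the fold minimum.

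Snai1 (ENSMUSG00000042821, chr2:167538195-167542814), the prototype repressor of E-cadherin with a short-lived protein, had 45.5 and 44.8 CPM in MEFs, 10.7 in each D3 library, 1.09 and 1.85 at D6, 0.739 and 0.783 at D9, and 8.96 and 10.2 CPM in ESCs. It fell by 2.08 (SE 0.10) from MEF to D3 and by 2.87 (SE 0.15) from D3 to D6. D9 lay below D6 by a log2 fold change of -0.93 (SE 0.25, adjusted p = 0.01), short of the fold minimum, and by -1.27 without the first D6 library, which passes it. ESC and D3 were close, with an adjusted p of 0.21 for their difference. ESCs held 21.2% of the MEF level, the highest share after that of Zeb1.

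Snai2 (ENSMUSG00000022676, chr16:14705852-14709385), the Slug repressor of neural crest and fibroblasts, had 59.1 and 62.7 CPM in MEFs, 10.4 and 11.2 at D3, 0.294 and 0.726 at D6, 0.289 and 0.253 at D9, and 8.19 and 7.88 CPM in ESCs. The D9 libraries had 9 and 10 reads, and the MEF to D9 ratio was 227 with a counting interval of 145 to 378. Snai2 fell by 2.50 (SE 0.09) and by 4.40 (SE 0.18) in the first steps. The difference from D6 to D9, -0.91 (SE 0.41, adjusted p = 0.11), passed both thresholds without the first D6 library (-1.42, adjusted p = 0.0085).

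Tcf21 (ENSMUSG00000045680, chr10:22817281-22820174, minus strand) was hardly present. The MEF libraries had 7 and 20 reads of it, 0.259 and 0.61 CPM, and D3 had 3 and 0 reads. None was counted at D6 or D9, which allows up to 0.0757 to 0.0965 CPM (3 reads) in those libraries, and ESCs had 0 and 1. It did not pass the filter on low counts and was not tested.

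From MEF to D3, 5 of the 8 tested factors fell and none rose, with edgeR and with DESeq2, where 14.5% of all tested genes fell. Twist2, Zeb2, Snai2, Snai1 and Prrx2 fell, in that order of size, while Prrx1, Twist1 and Zeb1 did not pass. The median log2 fold change was -1.83 over the 8 factors and 0.08 over all genes. From D3 to D6, all 8 fell (10.2% of all tested genes fell), with a median of -2.71 against 0.03. From D6 to D9, 4 fell (2.68% of all tested genes fell): Twist1, Prrx1, Zeb2 and Zeb1. The median there was -1.26 against 0.00.

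**Figure D2:**
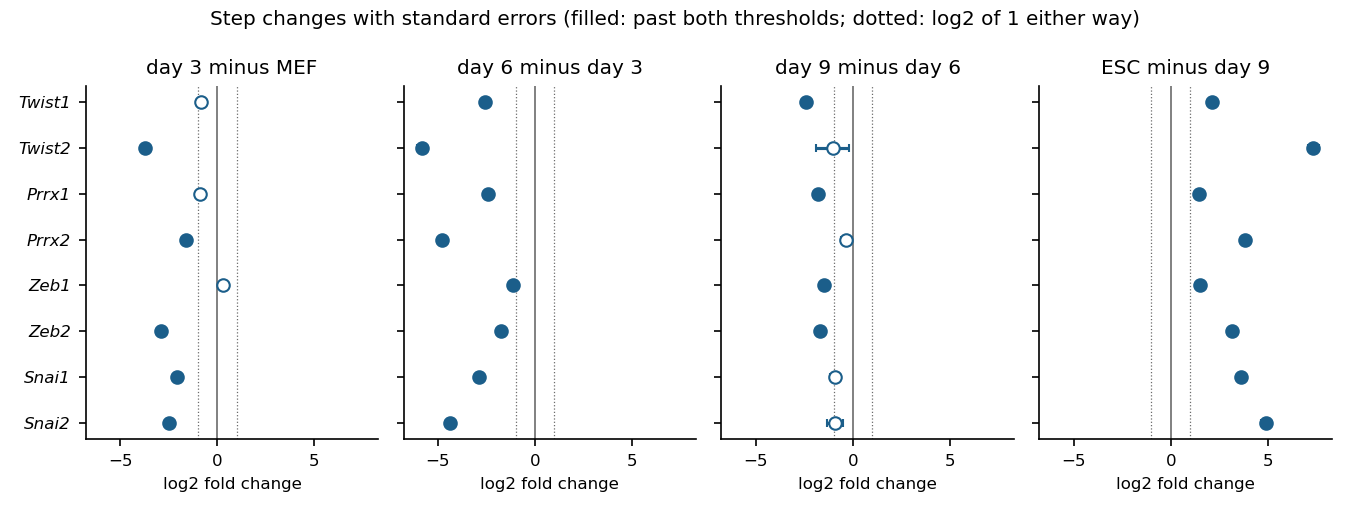
Log2 fold change of each factor in 4 steps, from the fit to all libraries. Bars are the SE derived from the F statistic, which can understate the error where a stage has few reads. Filled points passed both thresholds (adjusted p under 0.05 and a log2 fold change of at least 1 in size) and dotted lines mark that fold minimum. In the step from day 3 to day 6 all 8 points are filled and lie between -5.82 and -1.12.

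Over the whole way from MEF to D9, all 8 factors fell (19.8% of all tested genes fell), by -2.29 (SE 0.07) for Zeb1 to -10.55 (SE 0.18) for Twist2, with a median of -6.10 against 0.19 over all genes. The factors differed in when this drop took place. By D3, Zeb2 had gone through 46.2% of its log2 drop from MEF to D9, Twist2 through 38.3%, Snai1 through 35.8%, Snai2 through 33.0% and Prrx2 through 23.7%. Prrx1 had gone through 16.9%, Twist1 through 14.3% and Zeb1 through -13.6%, since its D3 level was above MEF. By D6, Prrx2, Twist2 and Snai2 had covered 95%, 93.8% and 91.0%, Snai1 85.3% and Zeb2 73.6%. At that stage Prrx1 was at 64.3%, Twist1 at 58.7% and Zeb1 at 35.1%, the lowest shares of the 8. These shares were computed on log2 CPM with a prior count of 2 added by edgeR, and not from the fold changes above. The prior count narrows the drop of genes with few reads, such as Twist2, and bears on the order of close shares. The shares describe the stage means and were not tested against each other.

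In ESCs, all 8 factors stood above D9 (18.6% of all tested genes were higher there), with log2 fold changes from 1.47 (SE 0.06) for Prrx1 to 7.34 (SE 0.28) for Twist2 and a median of 3.41. Against D6, 5 were higher in ESCs (20.2% of all genes): Twist2, Prrx2, Zeb2, Snai1 and Snai2. Against D3, 4 were lower (18.2% of all genes). Against MEFs, 7 were lower (20.6% of all genes) and Zeb1 did not pass the fold minimum, with a median of -3.04 over the 8 factors. The ESC levels of the factors lay between 7.9% of MEF for Twist1 and 57.7% for Zeb1.

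The ESC cultures also held RNA of fibroblast genes. The 10 fibroblast markers stood at 1.11% to 14.0% of their MEF means in ESCs, with a median of 9.09%, and none of them was at 0. In D9 cells, sorted for SSEA1, their highest value was 2.5% of MEF, and Lum was at 0 reads. The shares of Twist1 (7.9%), Prrx1 (7.98%), Twist2 (10.7%), Zeb2 (11.2%), Snai2 (13.2%) and Prrx2 (13.6%) in ESCs lay within the range of the markers. Snai1 (21.2%) and Zeb1 (57.7%) lay above it. Both lay within the range of the 16 mesenchymal effector genes described below, 5.95% to 83.3% with a median of 21.8%. Of 6 blood cell markers, all 6 were higher in ESCs than at D9 (18.6% of all tested genes were higher). Their sums were 34.2 CPM or more in ESCs against 7.32 or less at D9. Most of the ESC sum was Cd68, at 25.5 CPM. Unlike the fibroblast markers, these stood at 79.5% to 1487.8% of their MEF means in ESCs. Their sums were 8.35 to 9.3 CPM in MEFs and 12.3 to 12.7 CPM at D3, both unsorted. How much the feeder cells added to each factor's ESC level was not tested.

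**Figure D3:**
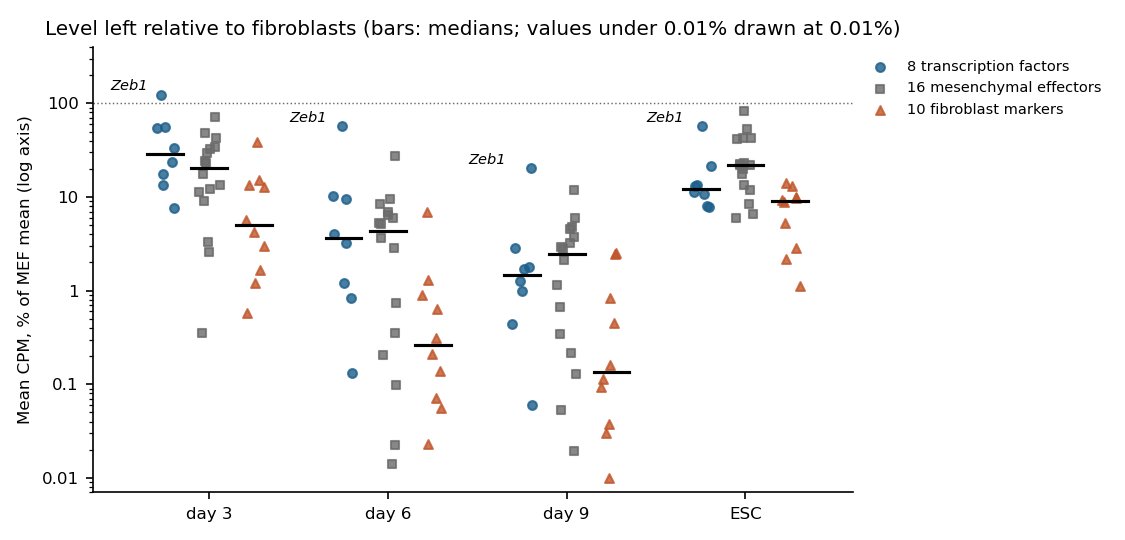
Stage mean CPM as a percent of the MEF mean (log axis) for the 8 factors, 16 mesenchymal effector genes and 10 fibroblast markers. Points are genes and bars are medians, and a value under 0.01% is drawn at 0.01%. Zeb1 is the highest of the factors at each stage, from 20.3% at day 9 to 124.2% at day 3.

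Ordered by level, each of Twist1 and Prrx1 ran MEF, D3, D6, ESC, D9, with ESC and D6 apart by less than the fold minimum. Prrx2, Zeb2, Snai1 and Snai2 ran MEF, D3, ESC, D6, D9. Twist2 ran MEF, ESC, D3, D6, D9, and Zeb1 ran D3, MEF, ESC, D6, D9. The difference between the neighbours D3 and ESC did not pass both thresholds for Twist2, Zeb2, Snai1 and Snai2, and that between D6 and D9 did not for Twist2, Prrx2, Snai1 and Snai2. The difference between MEF and D3 did not pass both for Twist1, Prrx1 and Zeb1, nor for Zeb1 did those between MEF and ESC and between ESC and D6.

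Because longer messengers give more reads, levels of different genes were compared as CPM per kilobase of each gene's most-read coding transcript. In MEFs the order was Prrx1 at 144.1, Prrx2 at 110.5, Twist2 at 68.1, Twist1 at 50.6, Snai2 at 30.0, Zeb2 at 28.3, Snai1 at 27.9 and Zeb1 at 10.8 CPM per kilobase. The second place of Prrx2 rests on annotated transcripts with a retained intron (003 and 004), which took 17.3% and 49.0% of its MEF reads. In the MEF libraries its coding transcript 001 had TPM of 13.7 and 13.8 and coding transcript 002 had 5.68 and 6.01. Those of Twist2-001 were 38.6 and 37.9 and those of Twist1 26.7 and 28.0. Zeb1 was thus the lowest of the 8 tested factors per length in fibroblasts. At D9 it was the second, with 2.19 CPM per kilobase after Prrx1 with 4.13, followed by Prrx2 with 1.09 and Twist1 with 0.912. In ESCs Prrx2 stood above Prrx1 per length, at 15.0 against 11.4 CPM per kilobase, with all reads counted. The retained-intron transcripts 003 and 004 took 19.8% and 43.4% of the Prrx2 reads there. In the first ESC library, coding transcripts 001 and 002 had TPM of 2.07 and 0.783 for Prrx2 and of 2.59 and 2.07 for Prrx1. In the second they had 2.21 and 1.06 for Prrx2 and 1.74 and 2.63 for Prrx1. Zeb1 took 4.6% and 4.8% of the summed CPM of the 9 factors in the MEF libraries and 32.2% and 33.2% at D9, and Prrx1 took 54.0% and 53.7% in MEFs and 51.6% and 53.9% at D9. The deposited TPM puts Prrx2 above Prrx1 in MEFs, at 121.0 against 95.8, and below it, at 81.4 against 95.8, without transcripts of under 250 effective bases. The deposited TPM of Zeb2 in MEFs, 82.2, rests on a short transcript and is 13.8 without transcripts of under 250 effective bases, so that TPM is not used to rank it.

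The balance within each pair of paralogs shifted along the course, most for Zeb and Twist. Zeb1 took 28.2% and 30.3% of the pair's reads in the MEF libraries, 79.7% and 78.9% at D3, 85.1% and 85.8% at D6, 85.2% and 88.6% at D9, and 68.7% and 67.3% in ESCs. The pair's balance therefore turned over by D3, with no overlap between MEF and later libraries. Twist1 took 46.7% and 48.3% in MEFs, 86.5% and 87.5% at D3, 99.3% and 97.8% at D6, 97.7% and 95.4% at D9, and 43.9% and 36.2% in ESCs. Twist2 thus had more reads than Twist1 in MEFs and ESCs, and Twist1 led at D3, D6 and D9.

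Prrx1 had the larger share of its pair in every library, from 76.3% in an ESC library to 98.4% in a D6 library. In the Snai pair, Snai1 took 43.5% and 41.7% in MEFs, 50.7% and 48.8% at D3, 78.7% and 71.8% at D6, 71.9% and 75.6% at D9, and 52.2% and 56.4% in ESCs. With 32 and 41 reads of the pair, the 95% exact (Clopper-Pearson) intervals for Snai1 at D9 span 53.3% to 86.3% and 59.7% to 87.6%, which cover counting error only. A share of a pair's reads also depends on the lengths of its messengers, and reads that match both genes of a pair were divided between them by the quantification.

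**Figure D4:**
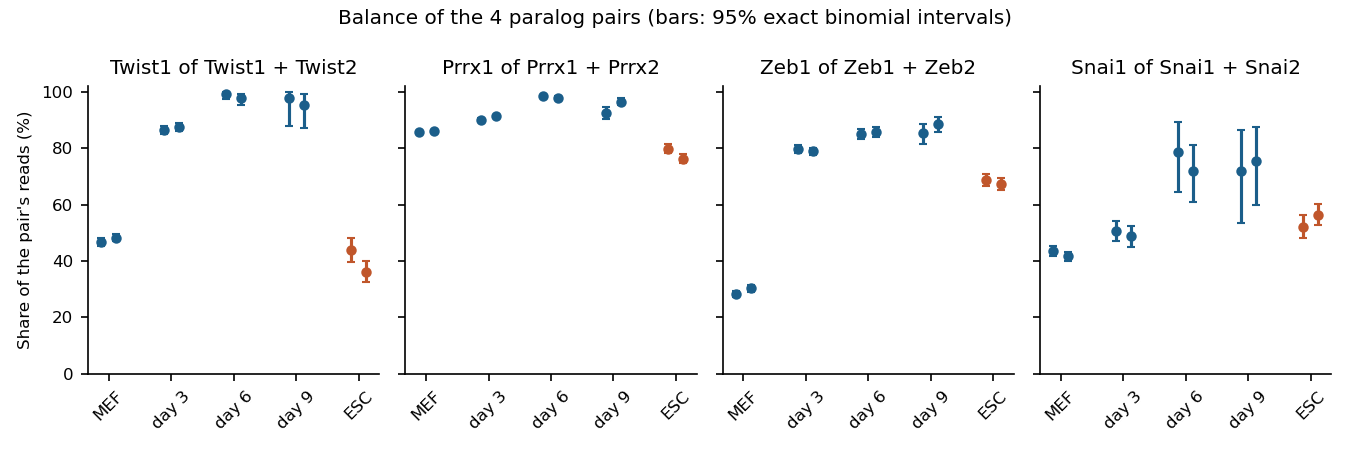
Share of each paralog pair's reads (%) that came from the first gene, for Twist1, Prrx1, Zeb1 and Snai1, in each library. Bars are 95% exact binomial intervals, and ESC libraries are orange. The share of Zeb1 moves from 28.2% and 30.3% in MEF to 78.9% or more from day 3 to day 9.

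The partners and inhibitors of Twist took courses of their own. Of 7 such genes (Tcf3, Tcf4, Tcf12 and Id1 to Id4), 3 rose from MEF to D3 (14.6% of all genes rose) and none fell. These were all Id genes, whose proteins bind E-proteins but not DNA: Id1 went from 163.0 and 163.9 CPM to 316.5 and 357.1, Id2 from 102.7 and 104.1 to 229.6 and 247.1, and Id4 from 36.6 and 37.0 to 76.7 and 81.9 CPM. Their log2 fold changes were 1.04, 1.21 and 1.11 (SE 0.05, 0.04 and 0.05), close to the fold minimum, and with DESeq2 1 of them passed. From D3 to D6 Id1 and Id3 fell. No gene of the list passed from D6 to D9 with edgeR or DESeq2, although 6 had an unadjusted p under 0.05, all of them lower. These 6 missed the fold minimum, the largest change being that of Tcf4 (log2 fold change -0.85, edgeR adjusted p = 3.3e-09). The E-protein Tcf3 stayed between 152.2 and 213.7 CPM in all 10 libraries. At D9, Tcf4, Tcf12 and Id3 stood below MEF and Id2 above, which it missed with DESeq2. In ESCs, 6 of the 7 were lower than in MEFs (20.6% of all tested genes were lower).

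Among 10 genes of the TGF-beta pathway, which induces Snai and Zeb genes in many cells, the ligands moved apart. Tgfb1 fell from 66.1 and 68.9 CPM in MEFs to 10.2 and 10.3 at D3, and Tgfb3 from 358.8 and 358.9 to 83.0 and 85.4 CPM. Tgfb2 rose over the same step, from 48.4 and 49.0 to 94.5 and 100.6 CPM (log2 fold change 1.00, SE 0.05, edgeR adjusted p = 1.5e-10), right at the fold minimum, which it missed with DESeq2. From D3 to D6 all 3 ligands fell, together with Smad7, the inhibitory Smad that the pathway itself induces. By D9, 6 of the 10 were lower than in MEFs (19.8% of all tested genes were lower) and none was higher (24.1% were higher). Both receptors, Tgfbr1 and Tgfbr2, were among the lower genes. Smad2, Smad3 and Smad4 passed in none of the steps from MEF to D9.

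None of the genes of the complexes through which the repressors act was called lower at D9 than in MEFs. Of 9 corepressors and chromatin partners (Ctbp1, Ctbp2, Kdm1a, Rcor1, Hdac1, Hdac2, Sin3a, Ezh2 and Suz12), none passed from MEF to D3 or from D6 to D9, with edgeR or DESeq2. The log2 fold changes were -0.21 to 0.81 and -0.31 to 0.11, all short of the fold minimum. In these steps 7 and 4 genes had an unadjusted p under 0.05. Adjusted p could be small too, as for Suz12 from MEF to D3 (edgeR adjusted p = 2.3e-10). Ezh2 rose from D3 to D6 (9.26% of all tested genes rose). At D9 Ezh2, Suz12 and Sin3a stood above MEF (24.1% of all genes did), 2 of them with DESeq2 too. Ezh2, the catalytic subunit of Polycomb complex PRC2, went from 37.9 and 39.0 CPM in MEFs to 145.6 and 147.5 at D9. Of 5 genes that act in turnover of Snail protein (Gsk3b, Btrc, Fbxl14, Fbxo11 and Fbxo45), none passed in any of the steps between MEF and D9 with edgeR or DESeq2. Their log2 fold changes lay between -0.33 and 0.56 in those steps, all short of the fold minimum. An unadjusted p under 0.05 was found for 4, 4 and 3 genes. Adjusted p could be small too, as for Fbxl14 from MEF to D3 (edgeR adjusted p = 8.8e-08).

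The classical target of the repressors, Cdh1, which encodes E-cadherin, was near 0 in MEFs, at 0.222 and 0.518 CPM. It stood at 8.69 and 10.3 CPM at D3, 77.4 and 80.2 at D6, 405.0 and 422.5 at D9, and 355.4 and 356.8 CPM in ESCs. Cdh1 thus rose at D3 (log2 fold change 4.62, SE 0.20), when Zeb2, Snai1 and Snai2 had fallen and Zeb1 was above its MEF level. It rose again by 3.05 (SE 0.07) and 2.39 (SE 0.05) in the next steps. In ESCs Cdh1 differed from D9 by -0.22 (SE 0.04), while all 8 tested factors were higher there than at D9.

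Epcam, an epithelial adhesion molecule whose promoter is printed above with its E-boxes, had 0.148 and 0.244 CPM in MEFs, 0.565 and 0.621 at D3, 119.7 and 120.5 at D6, 441.4 and 456.6 at D9, and 143.2 and 145.4 CPM in ESCs. Its largest step was from D3 to D6 (7.66, SE 0.08). Crb3, a polarity gene that likewise holds E-boxes in its window, had 0 reads in both MEF libraries, 2.57 and 2.79 CPM at D6 and 15.9 and 16.4 at D9. Both genes were lower in ESCs than at D9, by -1.64 (SE 0.03) for Epcam and -1.25 (SE 0.16) for Crb3.

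**Figure D5:**
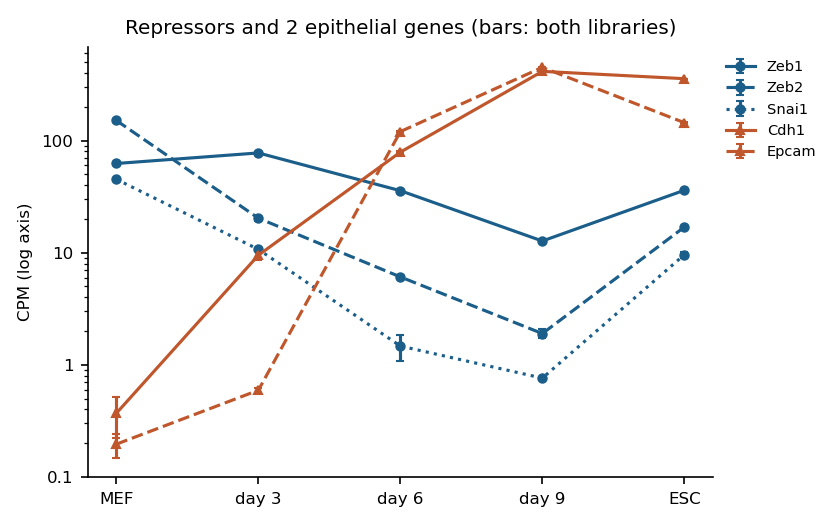
Stage mean CPM (log axis) of the repressors Zeb1, Zeb2 and Snai1 (blue) and of the epithelial genes Cdh1 and Epcam (orange). Bars span both libraries of a stage. At day 3 Cdh1 is at 9.49 CPM and Epcam at 0.593 CPM, with Zeb1 at 77.5 CPM.

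The list of 20 epithelial genes was mixed at D3 and moved together later. From MEF to D3, 7 rose and 6 fell (14.6% of all tested genes rose and 14.5% fell). The former included Dsp (desmoplakin) and Jup (plakoglobin) and the latter Krt18, Krt19 and Cldn4. From D3 to D6, 15 rose (9.26% of all tested genes rose) and Krt19 fell (10.2% fell). From D6 to D9, 19 rose (5.18% of all tested genes rose) and Jup did not pass. Grhl2 and Ovol2, epithelial transcription factors that oppose Zeb1, had 51.7 and 52.0 CPM and 9.09 and 10.3 CPM at D9, where MEFs had 0.0305 CPM or less of each. In ESCs, 17 of the 20 were lower than at D9 (14.3% of all genes were lower) and Llgl2 was the gene that was higher.

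Mesenchymal effectors, 16 genes of adhesion, matrix and contraction, fell over the same steps. From MEF to D3, 15 fell (14.5% of all tested genes fell) and Vim (vimentin) did not pass. From D3 to D6, 15 fell (10.2% of all tested genes fell). Postn (periostin) had 4874.7 and 4884.6 CPM in MEFs and 17.1 and 17.3 at D3. Cdh2 (N-cadherin) had 136.1 and 137.2 CPM in MEFs, 43.0 and 46.2 at D3, 12.7 and 13.2 at D6, and 4.08 and 4.77 at D9. From D6 to D9, Cdh2, Vim, Tnc and Mmp2 fell (2.68% of all tested genes fell), while Lox rose from a level under 1 CPM at D6. In ESCs, 15 of 16 were higher than at D9 (18.6% of all tested genes were higher). Against MEFs, 14 were lower in ESCs (20.6% of all tested genes were lower), and the ESC level of Cdh11 was 5.95% of MEF.

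For each tested factor, the genes with the most similar course were found among 12339 protein-coding genes, by the root mean square difference of log2 CPM over the 5 stage means, each gene centred on its own mean. The log2 values were computed by edgeR with a prior count of 2, which narrows the course of genes with few reads and bears on which genes lie nearest to them. Twist1 was closest to Ebf1 (0.20) and then to Prrx1 (0.25), whose own closest genes were Nsg1 (0.18) and Twist1. Twist2 was closest to the matrix genes Bgn (0.16) and Col5a1 (0.38), and Snai2 to Prkg1 (0.18) and Pdgfrb (0.20). Snai1 was closest to Zcchc24 (0.11) and Fam114a1 (0.20), Zeb2 to Ptgir (0.26) and Bicc1 (0.34), Prrx2 to Olfml2b (0.26) and Gpr176 (0.27), and Zeb1 to Csf1 (0.18) and Tmem37 (0.20). The distance between paralogs was 2.34 for Twist1 and Twist2, 1.45 for Zeb1 and Zeb2, 1.31 for Prrx1 and Prrx2 and 0.75 for Snai1 and Snai2. In order of nearness, Snai2 had rank 201 for Snai1 and Snai1 rank 83 for Snai2, while Twist2 had rank 8628 for Twist1 and Twist1 rank 516 for Twist2. Across families the nearest factors were Twist1 and Prrx1, Prrx2 and Snai2 (0.39), and Zeb2 and Snai1 (0.47). These distances describe 5 stage means and have no test.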

How the data were processed

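Per the submitters' processing notes, Salmon 0.8.2 and the mm10 build were used; the annotation release and options are not given in the sources used here. The deposited files, 1 per library, give estimated counts (reads) and TPM for 109617 transcripts, per the file headers; TPM is relative to effective transcript length and to the library. The labels give a stranded poly(A) kit and single reads of 50 bases.

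Estimated counts were summed per gene, rounded and tested with edgeR 4.0.16 (filterByExpr, TMM, quasi-likelihood, all 10 libraries, no block; R 4.3.3), a common biological coefficient of variation of 3.75%, and Benjamini-Hochberg adjustment over 20165 genes. The procedure was tested on simulated data. Alternatives were DESeq2 1.42.0, limma 3.58.1 on log2(TPM + 1) and log2(TPM + 0.1), other scalings and filters, no fold minimum, the compared groups only, a replicate block, and each library left out. Replicates differed by more than sampling noise (chi-square per degree of freedom 2.78 to 5.05).

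The members and the gene lists were chosen with earlier results of these data known. All 9 members are named whatever their values, genes of the lists with their list's counts, and for each tested member the 2 protein-coding genes of the most similar course, among genes with at least 5 CPM in a stage. Coordinates and 3′ UTRs are from GENCODE M21 (GRCm38), the counterpart of mm10. Protein sequences were not used here.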

Additional observations from a re-analysis of the deposited data

How the results depend on the processing

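Of 670 alternative log2 fold changes over 48 pairs of factor and comparison, 656 kept direction and side of both thresholds, 9 passed in addition, 4 no longer passed and 1 changed sign. The one that changed sign was Prrx2 from D6 to D9 (-0.34), which ranged from -0.85 to 0.12 with a library left out and was positive without the second D9 library. Without a fold minimum, 1 factor (Zeb1) was called higher at D3 than in MEFs where none was. With limma on log2(TPM + 1), 2 factors in place of 4 were called lower from D6 to D9, since Zeb1 (-0.99) missed the fold minimum and Zeb2 (-1.43) had adjusted p = 0.076; Zeb1 from D3 to D6 also missed it with limma (-0.83 and -0.97), while Prrx1 from MEF to D3 passed (-1.06 and -1.07). With each library left out in turn, the factors called lower numbered 5 to 6 from MEF to D3, 4 to 6 from D6 to D9, 8 to 9 from MEF to D9 and 7 to 8 in ESCs against MEFs; in the counts against MEF the added gene was Tcf21, which then entered the test.

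Scaling by library size without TMM moved the median of all genes from 0.08 to 0.29 at D3, from 0.19 to 0.48 at D9 and from 0.10 to 0.44 in ESCs, each against MEF, and turned no factor's direction. Fitting the replicate block left every count of factors called as it was (5 lower at D3, 8 at D6, 4 at D9). The deviations of same-numbered libraries from their stage means had a correlation of -0.02 to 0.022 over 10 pairs. With 2 libraries a stage, these values show no pairing but cannot settle whether a preparation was shared.

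Without transcripts of under 250 effective bases, chosen after seeing the data, the TPM of Prrx2 went from 121.0 to 81.4 in MEFs and that of Zeb2 from 82.2 to 13.8. Depth limits Twist2, Snai2 and Tcf21 at D6 and D9, where single reads are worth 0.0252 to 0.0322 CPM.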

Other observations

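The shares of transcripts within some of the genes differed between libraries and stages. For Prrx1, coding transcript 001 took 51.6% and coding transcript 002 took 23.2% of the gene's reads in MEFs, 51.4% and 28.2% at D9, and 36.8% and 40.6% in ESCs. Libraries of the same stage lay farther apart than these stage means for transcript 001, at 32.9% and 55.6% at D6 and at 39.8% and 63.0% at D9. For Zeb2, an annotated transcript with a retained intron (016) took 0.3% of the reads in MEFs, 7.2% at D6, 23.8% at D9 and 1.2% in ESCs, while its estimated reads were 4.7 to 17.9 in every library. For Zeb1 the main coding transcript (001) took 86.8% in MEFs and 79.4% at D9.

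Genes that overlap the factors were low throughout. Gm29100, antisense to Twist2, had mean levels of 1.47 CPM in MEFs, 0.744 at D3 and 0.0294 at D6, and Gm10125, opposite Zeb1, had 1.28 CPM in MEFs and 2.03 at D9.

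Markers of other lineages also differed between the stages. The 6 keratinocyte markers summed to 12.2 CPM or more in each MEF library and to 87.7 CPM or more at D9. From D6 to D9, 5 of 6 rose (5.18% of all tested genes rose). Most of the D9 sum was Sfn (44.4 CPM), Krt6a (26.3) and Krt17 (14.6). Krt5 was at 0.517 CPM at D9, and Krt14 and Trp63 did not pass between MEF and D9. The 6 endothelial markers went from sums of 8.78 CPM or more in MEFs to 129.9 or more at D3, and most of that sum was Tek, at 2.33 CPM in MEFs and 121.0 at D3. Emcn fell in that step, from 4.15 to 0.043 CPM, and Kdr and Tie1 did not pass. The skeletal muscle list was mostly Des, at 75.7 CPM in MEFs and 6.2 at D3.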
